A study of Mus musculus with 74 samples.

Results

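The Pol II peaks examined here lie within genes or at their ends, away from annotated starts. Of the 31434 RNA polymerase II (Pol II) peaks listed for mouse liver, 8917 were more than 1000 bp from the nearest transcription start site (TSS) and were annotated to an intron, an exon, a 3′ UTR, a 5′ UTR or the window around a transcription termination site (TTS). They are called gene body peaks below, and those in the last of these classes gene end peaks. The other peaks were 14810 promoter peaks within 1000 bp of a TSS, 7614 intergenic peaks and 93 peaks on non-coding transcripts.

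Livers of *Gps2* LKO mice, which carry the floxed *Gps2* allele (flox/flox) and Cre under the *Albumin* promoter and so lack the corepressor subunit GPS2 in hepatocytes, were compared with livers of floxed littermates without Cre (WT). Both groups were C57BL/6 mice of 8 to 12 weeks on chow, and the study's methods name males. Pol II was mapped by ChIP-seq in 1 library per genotype, each from several pooled immunoprecipitations, so the Pol II values below have counting error only and no replicate check, and no test of the genotype was possible. Polyadenylated RNA was sequenced from 4 livers per genotype. H3K27ac, a histone mark of active promoters and enhancers, was mapped in 2 libraries per genotype, for which the methods also describe pooled immunoprecipitations. Cre under this promoter acts in hepatocytes, so other liver cells keep the allele.

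Pol II starts at promoters, where it often pauses, and then transcribes the gene body, usually too thinly to be called as a peak. Within introns, focal Pol II is commonly found at enhancers and at alternative starts. At gene ends, Pol II slows after it has transcribed the polyadenylation signal, at which the RNA is cut, and accumulates downstream of it before it leaves the DNA.

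The gene body peaks were short windows of 203 to 558 bp (median 203 bp) that covered 1951 kb in all. Sums over them are therefore sums over summits, not over whole genes. Introns held 7263 of the peaks, TTS windows 715, exons 562, 3′ UTRs 313 and 5′ UTRs 64. Their sequences at gene ends are shown first, because they place the peak relative to the polyadenylation signal. The lines below give, from the genome build NCBIM37 (mm9) and on the strand of the gene, 30 bases around the last AATAAA hexamer (capitals) of genes that had a gene end peak.
Alb: tgtgctgcaattAATAAAaaatggaaagaa
Pck1: aaaaaattacaaAATAAActtttatagaaa
Tat: tctttttttttaAATAAAattttatcaagt
Scd1: gtatttgttcctAATAAAagtggatctggt
Rgs16: aaaaaacctgaaAATAAAactcaaaaataa
Cyp2a4: gaataataaaatAATAAAagtagatattat

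These windows lie at chr5:90905595-90905624 (plus strand) for *Alb* (albumin), chr2:172984738-172984767 (plus) for *Pck1* (a gluconeogenic enzyme), chr8:112523671-112523700 (plus) for *Tat* (tyrosine aminotransferase), chr19:44468954-44468983 (minus) for *Scd1* (stearoyl-CoA desaturase), chr1:155592559-155592588 (plus) for *Rgs16* (a regulator of G protein signalling) and chr7:27100070-27100099 (plus) for *Cyp2a4* (a steroid 15α-hydroxylase with female-biased expression). The centre of the Pol II peak lay 876 bp past the hexamer for *Alb*, 838 bp for *Pck1*, 605 bp for *Tat*, 517 bp for *Scd1*, 891 bp for *Rgs16* and 820 bp for *Cyp2a4*. Only genes whose peak centre lay past the hexamer were eligible for this display. The position downstream of the signal in these 6 genes is therefore no separate result. AATAAA was present in the last 50 bases of 378 of 569 protein-coding genes with a gene end peak (66.4%), against 12186 of 22380 protein-coding genes in the GENCODE annotation (54.5%). In the peaks themselves, the central 203 bases held AATAAA on the gene's strand at 53 of 647 gene end peaks (8.19%), against 6.21% of 3′ UTR, 5.94% of intergenic, 4.56% of intron and 2.04% of promoter peaks and 3.24% of all Pol II peaks with a gene's strand. On either strand the share was 12.6% at gene end, 12.5% at intergenic and 12.2% at intron peaks.

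Of the 715 gene end peaks, 647 could be placed against a GENCODE gene end. Their centres lay a median of 574 bp downstream of it, and the central 50% lay between 274 and 839.5 bp. Of these, 73 (11.3%) had their centre at or before the end, and 178 (27.5%) lay 750 to 1000 bp past it. The class ends about 1000 bp past the annotated end, so any Pol II farther downstream is annotated otherwise and was not counted. It is a window set by the annotation, and the 10th and 90th percentiles of its centres were −42.6 and 968.4 bp. The share of peaks on each side of the end depends on that window, and a preference of Pol II within it was not tested. *Zfp36*, which encodes an mRNA decay protein, was the only gene, among those named by the rule given under the processing, whose gene end or 3′ UTR peak itself held AATAAA on the sense strand, at chr7:29161812-29161833 on the minus strand. That peak had 213 tags in WT and 235 in LKO. Its window is shown with the hexamer in capitals.
Zfp36: aatttttaAATAAAatcttgag

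**Figure D1:**
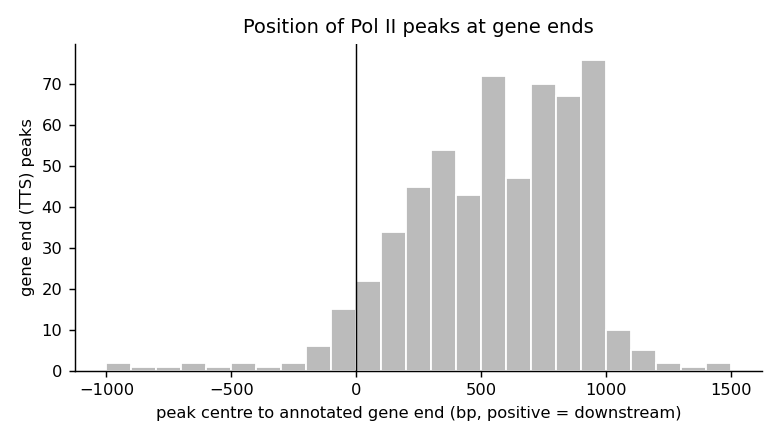
Number of gene end (TTS) peaks by the distance in bp from the peak centre to the annotated gene end, in bins of 100 bp between 1000 bp upstream and 1500 bp downstream, with the gene end at 0. Most peaks lie downstream of the end, in a class whose window is set by the annotation, and the median over all 647 placed peaks is 574 bp.

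Within introns, the motif of nuclear receptors was read as well, because PPARα, which switches on fatty acid oxidation genes and binds such repeats together with RXR, is among the factors mapped in these livers. A direct repeat of AGGTCA with a spacing of 1 base (AGGTCANAGGTCA, called DR1), with at most 1 mismatch and on either strand, was found in the central 203 bases of 63 of 3493 intron peaks that overlapped a PPARα peak (1.80%) and in 8 of 3765 that did not (0.212%). The share was 0.338% of promoter peaks, 0.777% of intergenic peaks and 0.615% of all Pol II peaks. The lines below show the repeat in capitals on its own strand with up to 8 bases on each side, for the named genes first, as examples of intronic Pol II at such a repeat.
Gys2: acacatatAGGCCAGAGGTCAccaaagtc
Tns1: gcctggggAGGTCAAAGTTCAaaccttct
Ndufs7: caggccgaAGGTCATAGGCCAcagggagc
Lncpint: tttctgagAGGTCATAGGTCAgctaatgt
Elovl6: gcttttctAGGGCAAAGGTCAtttggctc

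The repeat in *Gys2* (liver glycogen synthase) is at chr6:142419879-142419907 on the plus strand in intron 1, and its peak had 117 tags in WT and 140 in LKO. The repeat in *Tns1* (tensin, a focal adhesion protein) is at chr1:73975924-73975952 on the minus strand in intron 22, and its peak had 89 and 156 tags. The repeat in *Ndufs7* (a subunit of respiratory complex I) is at chr10:79717586-79717614 on the minus strand in intron 4, with 97 and 44 tags. The repeat in *Lncpint* (a long non-coding RNA) is at chr6:31142409-31142437 on the minus strand in intron 1 and has no mismatch, with 42 and 58 tags. The last, in intron 2 of *Elovl6* (a fatty acid elongase) at chr3:129285530-129285558 on the plus strand, had only 4 and 10 tags. The Pol II tags were higher in LKO at 4 of these peaks and lower at *Ndufs7*. Over the 47 gene body peaks with a DR1, a PPARα peak and at least 20 tags, the median log2 ratio of LKO over WT was 0.29, with 7 at least 2-fold higher and 6 at least 2-fold lower. Over all 6293 gene body peaks with as many tags the median was 0.09, and 6.47% were as much higher and 4.48% lower.

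The libraries behind these values were of similar depth. In units of 1000000 tags or reads, the Pol II libraries held 11.7 (WT) and 11.9 (LKO), of which 15.6% and 16.5% fell in listed peaks and 1.91% and 2.04% in gene body peaks. The RNA libraries held 13.2 to 20.1 and the H3K27ac libraries 25 to 29.4 in the same units. *Gps2* had no gene body peak, and its promoter peaks had 70 tags in WT and 84 in LKO. Its RNA was 261, 251, 266 and 240 normalized counts in the WT livers and 202, 157, 146 and 205 in the LKO livers, below every WT library (log2 fold change −0.53 ± 0.11 SE, edgeR adjusted p = 0.0021). Hepatocyte markers summed to 1661730 to 1723900 normalized counts in WT and 2253990 to 2686820 in LKO livers, most of it *Alb*, with 2 of 6 markers called higher and 1 lower. None of the markers in the table was at 0 in all libraries. The RNA of 8 of 9 tested Kupffer cell and macrophage markers and of 9 of 9 stellate cell and fibroblast markers was called higher in LKO, where 23.4% of all tested genes were called higher and 21.4% lower. Their sums were 2488 to 2534 normalized counts in WT against 3326 to 3965 in LKO, and 3181 to 3306 against 6036 to 6246. The summed markers of endothelial cells were 3365 to 3454 in WT and 3471 to 3957 in LKO (2 of 8 called higher), those of cholangiocytes 1034 to 1101 and 1455 to 1783 (3 of 5 higher), and those of lymphocytes and erythroid cells 3577 to 3966 and 2952 to 3894 (3 of 4 higher and 1 lower). The part of these cells in the results below was not tested. In whole liver a change in the number of cells of a type and a change of RNA per cell cannot be told apart.

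The first question was whether Pol II on gene bodies differed between the genotypes as a whole. Relative to the total tags of each library it was nearly the same. A change shared by all Pol II could be hidden, because each library was scaled to its own total. The 8917 peaks held 223001 tags in WT and 242056 in LKO, with medians of 14 and 15 tags per peak and maxima of 568 and 548. Scaled to tags per 10000000, the 6293 peaks with at least 20 tags in both libraries together had a median log2 ratio of LKO over WT of 0.09, and the central 50% lay between −0.28 and 0.44. All 26085 Pol II peaks with as many tags had a median of 0.08, and promoter peaks 0.07.

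At least 2-fold higher in LKO were 407 gene body peaks (6.47%), against 3.59% of all Pol II peaks, and 282 (4.48%) were at least 2-fold lower, against 2.47% of all. Scaled to the tags in all listed peaks, 330 were higher and 357 lower, and with the median ratio set to 1, 332 and 339, so the excess of higher peaks rests on the scaling. These shares followed the depth of the peaks. Of 3747 gene body peaks with at least 20 but fewer than 50 tags, 339 were higher (9.05%) and 249 lower (6.65%), while of 354 with at least 200 tags, 2 were higher and none was lower. In the lowest range promoter peaks had 5.42% higher and 7.06% lower. From 50 to below 100 tags, 3.41% of gene body and 1.76% of promoter peaks were higher, and 1.88% and 1.57% were lower. From 100 to below 200 tags, 2.25% against 0.330% were higher and 0.794% against 0.0761% lower. Intergenic peaks had 4.30% higher and 0.860% lower in the first of these ranges and 1.71% and 0.310% in the second. The difference between the classes of peaks was not tested, since peaks of 1 library are not replicates.

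**Figure D2:**
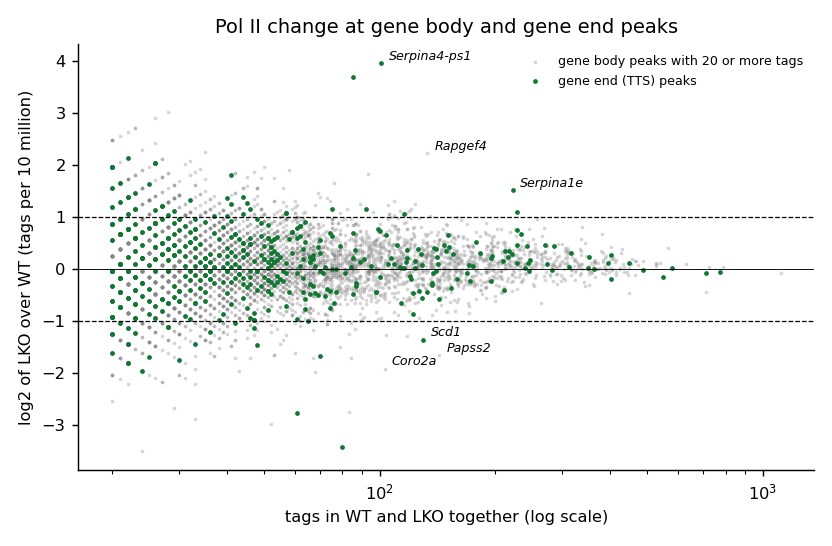
Log2 ratio of LKO over WT (tags per 10000000) of each gene body peak with at least 20 tags against the tags in both libraries together on a log axis. Gene end peaks are green, other gene body peaks grey, and the dashed lines mark 2-fold. The spread narrows with depth, and *Serpina4-ps1*, *Rapgef4* and *Serpina1e* lie above it.

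By position, 41 of 480 gene end peaks with at least 20 tags were higher (8.54%) and 24 lower. In introns 329 of 5113 were higher (6.43%) and 218 lower (4.26%), in exons 25 and 23 of 434, in 3′ UTRs 10 and 16 of 211 and in 5′ UTRs 2 and 1 of 55. Medians ran from −0.01 in 3′ UTRs to 0.11 at gene ends. Both libraries' own peak lists held 4208 of the gene body peaks, while 2252 were called in WT alone and 2457 in LKO alone. Of the peaks in both lists, 93 were higher and 59 lower.

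At the strongest peaks the tags neared a ceiling. The number of tags per base and strand reached 0.941 in WT and 0.995 in LKO among gene body peaks and 1.09 among all peaks, or about 1 tag per position and strand. Whether copies of a tag were removed is not stated in the methods read here, and a rise at such peaks could be understated. Above 0.5 were 28 gene body peaks in WT and 39 in LKO. The exon peak of *Tat* had 0.941 and 0.995 tags per base and strand, the gene end peak of *Pck1* 0.889 and 0.867, the 5′ UTR peak of *Jund* (an AP-1 factor) 0.859 and 0.902 and the gene end peak of *Alb* 0.654 and 0.644. Without the peaks above 0.5, the counts of 407 and 282 did not change, so none of these peaks was among those past 2-fold. Leaving them out cannot show whether the ceiling hides changes at them.

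The second question was what else marked these peaks in WT livers. H3K27ac peaks overlapped 7478 of the 8917 gene body peaks (83.9%, exact 95% interval 83.1 to 84.6%), against 95.8% of promoter and 81.9% of intergenic Pol II peaks. H3K4me3, the mark of promoters, overlapped 36.4% of gene body peaks (35.4 to 37.4%), 96.6% of promoter peaks and 38.6% of intergenic peaks. GPS2 was bound at 49.5% (48.4 to 50.5%), NCOR at 41.7% (40.7 to 42.8%) and PPARα at 45.0% (43.9 to 46.0%) of the gene body peaks, and at 2718 (30.5%) all 3 were. Promoter peaks overlapped GPS2 in 54.6%, NCOR in 25.2% and PPARα in 35.1%, with all 3 in 14.8%. Intergenic peaks were close to gene body peaks, with GPS2 at 46.8% (45.7 to 48.0%), NCOR at 39.7% (38.6 to 40.8%), PPARα at 41.6% (40.4 to 42.7%) and all 3 at 28.1%. NCOR and PPARα thus overlapped a larger share of gene body than of promoter peaks, with intervals that do not touch, and GPS2 a smaller one. These intervals cover counting error only.

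Gene end peaks stood apart from intron peaks. H3K27ac overlapped 47.3% of gene end peaks (43.6 to 51.0%) and 89.1% of intron peaks (88.4 to 89.8%), GPS2 23.5% (20.4 to 26.8%) and 53.5% (52.3 to 54.6%), NCOR 20% (17.1 to 23.1%) and 45.6%, and PPARα 22.1% (19.1 to 25.3%) and 48.1%. The 64 peaks in 5′ UTRs overlapped H3K4me3 in 85.9%, and 3′ UTR peaks in 18.8%. Of the intron peaks, 2861 (39.4%) lay in intron 1, which holds 26.5% of the intronic bases of the 3089 genes for which this could be computed. The median distance to the TSS was 13663 bp. Against the larger GENCODE annotation, 1052 gene body peaks (11.8%) lay within 1000 bp of a transcript start, and these held 18.2% of the WT tags.

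**Figure D3:**
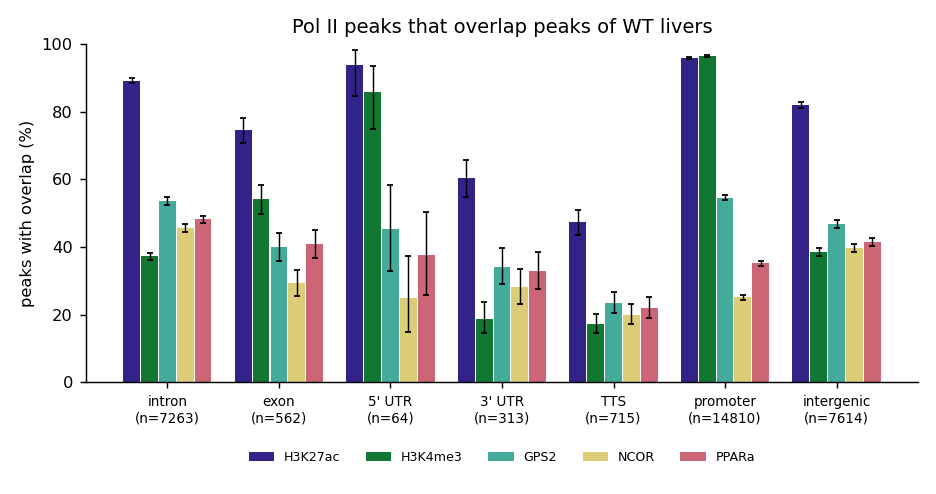
Share in percent of Pol II peaks of each class (number of peaks under each name) that overlap by at least 1 base a peak of H3K27ac, H3K4me3, GPS2, NCOR or PPARα in WT livers. Bars start at 0 and error lines are exact 95% intervals of counting. Gene end (TTS) peaks have the lowest share for each of the 5 lists, although their interval overlaps that of 3′ UTR peaks for H3K4me3 and that of 5′ UTR peaks for NCOR.

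The median Pol II change differed little by bound factor, while the share past 2-fold differed by histone mark. Gene body peaks with a GPS2 peak and at least 20 tags had a median log2 ratio of 0.11 (213 of 3455 higher, 116 lower), and those without had 0.07 (194 of 2838 higher, 166 lower). With NCOR the median was 0.13 and without 0.06, and with PPARα 0.11 and without 0.07. The 2-fold lower peaks were 3.36% of those with GPS2 and 5.85% of those without, and the median tags of these peaks also differed, 16 in WT with GPS2 and 12 without. Without H3K27ac 13.2% of the peaks were higher and 6.02% lower, and with it 5.74% and 4.31%. Without H3K4me3 9.09% were higher and 5.51% lower, and with it 3.25% and 3.22%. The peaks without these marks were also shallower, with WT medians of 9 against 16 tags for H3K27ac and 11 against 25 for H3K4me3, and the part of depth in these shares was not tested.

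Tags were then summed per gene. The 8917 peaks fell in 4472 genes, 2548 of them with 1 peak and 323 with 5 or more. The largest sums were those of *Tex14*, *Nfia*, *Klf13*, *Tns1*, *Tat*, *Rbm47*, *Macrod1*, *Lncpint*, *Maml3* and *Ttc23*. *Tex14*, a gene of male germ cells, had 6 peaks with 968 tags in WT and 1105 in LKO but 0.925 to 3.04 normalized RNA counts in WT and 1.62 to 4.92 in LKO livers. Its 249-tag intron peak lay 164 bp from a GENCODE start, so Pol II at that start and in the body of *Tex14* cannot be told apart. *Nfia*, a transcription factor gene, had 933 and 947 tags over 19 peaks. *Klf13* (a Krüppel-like factor) had 820 and 956 tags over 10 peaks, a ratio of 1.14 (95% interval 1.04 to 1.26).

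*Tns1* had the most peaks, 25, with 641 tags in WT and 892 in LKO, a ratio of 1.36 (1.23 to 1.51). Its RNA went the other way, with 2640 to 2867 normalized counts in WT and 1283 to 2084 in LKO livers, groups that did not overlap (log2 fold change −0.80 ± 0.12 SE, edgeR adjusted p = 0.00021). *Tat* had 668 and 667 tags, near the ceiling named above.

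At least 50 tags fell on 2295 genes, whose median log2 ratio was 0.10. At least 2-fold higher were 35 (1.53%) and lower 25 (1.09%). Of the 12039 sums over all Pol II peaks of a gene with as many tags, 0.415% were as much higher and 0.291% lower. Those sums include promoter peaks, which were deeper, with a WT median of 85 tags against 14 for gene body peaks. The part of depth in these shares was not tested. The 10 largest rises and falls among the 1372 genes with at least 100 tags are described next as values, with RNA as the independent readout.

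The 2 largest rises were at the ends of genes of the serine protease inhibitor family. *Serpina4-ps1*, a pseudogene, had 6 tags in WT and 95 in LKO at its single gene end peak (chr12:105325667-105325869), a ratio of 15.5 (95% interval 6.87 to 43.3), and its promoter peaks had 69 and 165 (2.34, 1.76 to 3.15). *Serpina1e* (an α1-antitrypsin gene) had 129 and 323 tags at 2 gene end peaks (2.45, 1.99 to 3.03) and 137 and 189 at its promoter. Its close copy *Serpina1a* had 216 and 233 (1.06, 0.875 to 1.28). The *Serpina1* genes are near-identical copies, so tags and reads between them are uncertain.

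Their RNA did not follow. *Serpina1e* RNA was 208827 to 213123 normalized counts in WT and 99262 to 135986 in LKO livers, lower in all 4 (log2 fold change −0.81 ± 0.09, edgeR adjusted p = 1.0e-05). *Serpina4-ps1* RNA was 3253 to 3346 and 2515 to 2820 (−0.33 ± 0.06, adjusted p = 0.00048). Both genes therefore had more Pol II tags and less RNA in LKO.

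*Rgs16* had 37 tags in WT and 79 in LKO at its gene end (2.09, 1.40 to 3.18), while its promoter had 245 and 273. Its RNA rose from 2726 to 2815 in WT to 5560 to 6162 normalized counts in LKO livers (log2 fold change 1.06 ± 0.05, edgeR adjusted p = 4.8e-09). *Rabl3* (a small GTPase gene) had 67 and 138 tags and *Onecut1*, a hepatocyte transcription factor gene, 52 and 107 (2.02, 1.43 to 2.87), and the RNA of neither was called (adjusted p = 0.25 and 0.79). LKO library 2 alone held 474 normalized counts of *Onecut1* against 159 to 271 in the other LKO livers, and without it the log2 fold change was −0.37 instead of 0.09. *5830473C10Rik*, *Gde1*, *Gstt1* (a glutathione transferase), *Edc3* and *Elmod3* made up the other rises, with ratios of 2.01 to 2.38. *Elmod3* RNA was called lower (log2 fold change −0.62), that of *Gstt1* higher (0.18, and −0.081 with the trend of RNA change with exon length removed), and that of *5830473C10Rik*, *Gde1* and *Edc3* was not called.

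Among the falls, the largest was at peaks annotated to the *Mup15* transcript, with 217 tags in WT and 28 in LKO over 5 peaks (0.126, 0.0821 to 0.188). The major urinary proteins are near-identical male-biased copies. The nearest start was that of *Mup7* for 4 of the peaks and that of *Mup2* for the last, so the sum stands for copies that cannot be told apart. *Mup15* RNA had 4.72 to 6.90 normalized counts in WT and 0 to 1.31 in LKO and was too low to be tested.

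*Scd1*, the enzyme that makes monounsaturated fatty acids, had 93 and 37 tags at its gene end (chr19:44468288-44468621; 0.390, 0.259 to 0.577) and 292 and 182 at its promoter (0.611, 0.505 to 0.738), both lower in LKO. Its RNA was higher, with 152642 to 157218 normalized counts in WT and 233973 to 303743 in LKO livers (log2 fold change 0.73 ± 0.08, edgeR adjusted p = 5.6e-06). *Scara5* (a ferritin receptor gene) fell in both readouts, with 84 and 38 tags and 131 to 149 against 27.5 to 43.7 normalized counts (−1.95 ± 0.14, adjusted p = 1.1e-07). *Cd4*, whose protein marks helper T cells, had 101 and 40 tags, and its RNA of 25.6 to 40.6 and 14.6 to 24.6 normalized counts was called lower (−0.86 ± 0.23, adjusted p = 0.0082).

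*Coro2a* had 81 and 22 tags at 1 peak in its 3′ UTR (0.266, 0.158 to 0.431), which lies 2743 bp upstream of the start of *Trim14*, and its RNA was higher in LKO, at 6.07 to 11.3 against 15.8 to 20.9 normalized counts. *Tmem50a* had 76 and 24 tags, *Slc25a26* (a mitochondrial carrier) 77 and 25, *Ndufs7* 97 and 44, *Rbm20* 69 and 33 and *Arid2* 79 and 38. Of these 5, the RNA of *Tmem50a* was called higher and that of *Arid2* lower, and both calls were lost once that trend with exon length was removed.

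**Figure D4:**
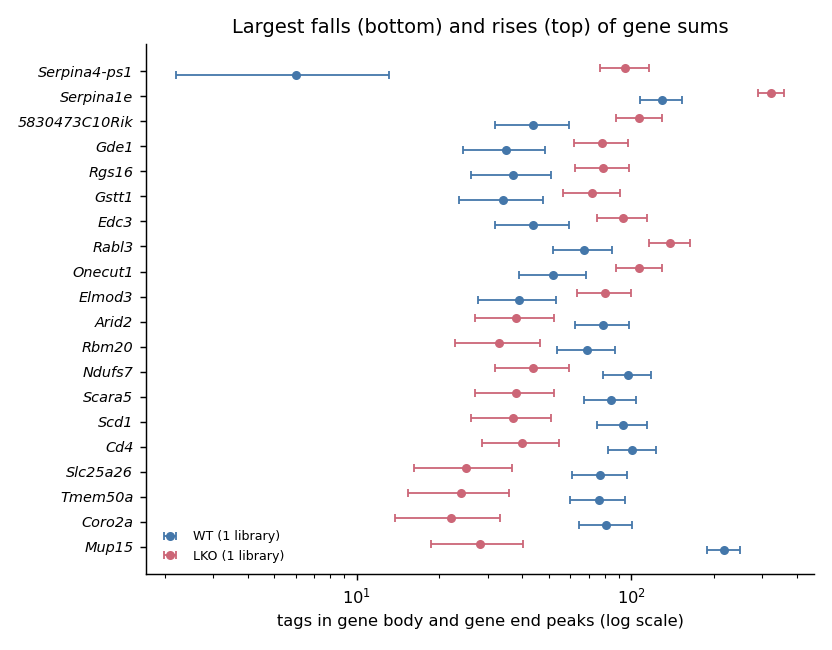
Tags in gene body and gene end peaks of the 10 genes with the largest rises (top) and the 10 with the largest falls (bottom) among genes with at least 100 tags, on a log axis. Points are the single WT and LKO library of each gene, and bars are exact 95% Poisson intervals of the counts.

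Single peaks were read in the same way. In introns, the largest rise among peaks with at least 100 tags was in intron 6 of *Rapgef4* (a guanine nucleotide exchange factor) at chr2:71994359-71994561, with 23 tags in WT and 110 in LKO (4.69, 2.97 to 7.70). *Galnt2* (a glycosyltransferase) was next in intron 1 with 31 and 78 tags (2.47, 1.61 to 3.87). In intron 1 of *Papss2* (an enzyme of sulfation) at chr19:32695394-32695611, only 1007 bp from the TSS, tags were 108 and 35 (0.318, 0.210 to 0.469), and in intron 6 of *Nfix* (a transcription factor gene) 83 and 35. All 4 lay in an H3K27ac peak, and none of these H3K27ac peaks was called (edgeR adjusted p = 0.41 to 0.91).

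The third question was how gene body Pol II stood against RNA. Of 3685 genes with gene body peaks that were tested for RNA, 780 (21.2%) were called higher and 1121 (30.4%) lower in LKO, where 23.4% and 21.4% of all 12220 genes were called (edgeR's quasi-likelihood test, adjusted p below 0.05). Genes with peaks had longer exons in sum, a median of 3.61 kb against 2.70 kb for tested genes without, and RNA changes fell with exon length. With that trend removed, 16.2% of genes with peaks were higher and 26.5% lower, against 15.1% and 20.6% of all genes. By level, genes with gene body peaks had a median of 101 normalized counts per kb of exon in WT livers and genes without 77.6, and those with gene end peaks 181.

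Tags and RNA level were weakly related. Across 4063 genes, which are not independent replicates, Spearman's rho between WT tags per kb of peaks and WT RNA counts per kb was 0.21. For gene end peaks it was 0.27 over 584 genes and for intron peaks 0.24 over 3238, and the LKO values were 0.29 and 0.26.

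Over all gene sums, changes of RNA and Pol II also went together weakly. The 52 genes with at least 50 tags whose RNA was up at least 2-fold had a median log2 Pol II ratio of 0.14 (95% interval of the median −0.04 to 0.23), with 31 above 0. The 31 genes with RNA down had −0.03 (−0.23 to 0.15), with 15 above 0, and the 925 genes whose RNA was not called 0.10. When peaks were given to the gene of the nearest TSS, the first 2 medians changed sign, to −0.01 and 0.09. Across the 2031 tested genes, Pearson's r of the 2 log2 changes was 0.13 and Spearman's rho 0.06. By class, r and rho were 0.10 and 0.08 for intron sums (1642 genes) and 0.02 and 0.08 for exon sums (177). They were 0.28 and −0.13 for gene end sums (180) and −0.14 and −0.03 for 3′ UTR sums (66), so the sign was not the same in every class.

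Only a few genes changed 2-fold in both readouts, chosen for that and so named after their values were seen. With RNA up, 6 of 52 had at least 2-fold more Pol II, against 32 of all 2031 genes (1.58%) and 13 of 925 whose RNA was not called. These were *Cyp2a4*, *Cish* (12 and 46 tags), *Vldlr* (18 and 43), *Lepr* (24 and 53), *Rgs16* and *Nipal1* (45 and 92). *Cish* is a target of cytokine and growth hormone signalling, *Vldlr* takes up lipoproteins, *Lepr* is the leptin receptor and *Nipal1* a magnesium transporter. With RNA down, 2 of 31 had at least 2-fold less, against 22 of all 2031 (1.08%). They were *Ddc* (43 and 17 tags), which makes aromatic amines, and *Scara5*. *Coro2a* was the 1 gene with RNA up and Pol II as much lower.

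**Figure D5:**
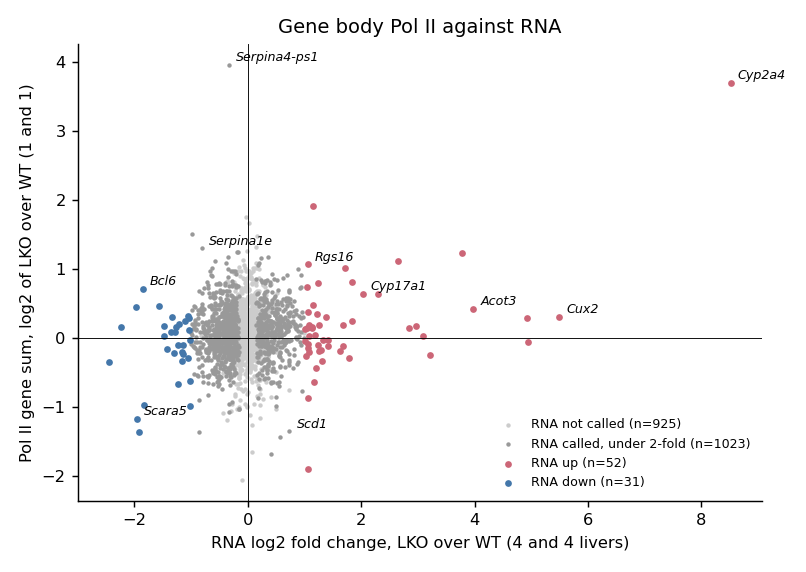
Log2 ratio of LKO over WT of the gene body Pol II sum (1 library per genotype) against the RNA log2 fold change (4 livers per genotype) for 2031 genes with at least 50 tags. Colours give the RNA class with its number of genes. *Cyp2a4* is high on both axes, while *Serpina4-ps1*, *Serpina1e* and *Scd1* lie in quadrants of opposite sign.

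Among the genes that changed 2-fold in both readouts, *Cyp2a4* had the largest ratio. Its gene end peak at chr7:27100801-27101003 had 6 tags in WT (95% interval 2.20 to 13.1) and 79 in LKO (62.5 to 98.5), a ratio of 12.9 (5.67 to 36.2), and its promoter 14 and 207 (14.5, 8.44 to 27). RNA was 38.5 to 83.0 normalized counts in WT and 16461 to 20495 in LKO livers (log2 fold change 8.51 ± 0.17, edgeR adjusted p = 3.3e-13). The H3K27ac peak over the same site had 4.0 and 5.11 tags per 10000000 in WT and 15.8 and 26.2 in LKO (adjusted p = 0.034). *Cyp2a5*, its near-identical neighbour, had 70 and 70 tags (0.980, 0.694 to 1.39), with RNA of 5432 to 5650 and 8314 to 9951 (0.76 ± 0.06, adjusted p = 7.4e-07). The overlap of sequence between the pair leaves the split of their tags and reads uncertain.

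Of the PPARα targets *Cyp4a14*, *Cyp4a10*, *Fgf21* and *Pdk4*, only the first had a gene body peak. *Cyp4a14*, which hydroxylates fatty acids, had 1 peak in intron 2 at chr4:115167375-115167577 with 1 tag in WT and 16 in LKO (15.7, 2.44 to 658), and 1 and 35 tags at its promoter. Its RNA was 53.7 to 82.0 normalized counts in WT and 1726 to 2033 in LKO livers (4.85 ± 0.11, edgeR adjusted p = 6.8e-13). The promoters of *Cyp4a10* (of the same enzyme family), *Fgf21* (a hepatokine) and *Pdk4* (an inhibitor of glucose oxidation) had 2 and 27, 82 and 198, and 55 and 91 tags.

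Of the 50 genes listed for fatty acid catabolism and PPARα targets, 29 had gene body peaks and 18 at least 50 tags. The median log2 ratio of these 18 was 0.17, against 0.10 over all genes, with 12 above 0 and none changed 2-fold, while 26 of 50 tested for RNA were called higher and 8 lower (23.4% and 21.4% of all tested genes). *Cpt1a*, the entry step of mitochondrial oxidation, had 167 and 254 tags (1.49, 1.22 to 1.82) with an RNA change of 0.01 (adjusted p = 0.94). *Acot3*, an acyl-CoA thioesterase, had 104 and 142 tags (1.34, 1.03 to 1.74) and RNA of 34.5 to 62.3 against 699 to 799 normalized counts (3.98 ± 0.13, adjusted p = 3.5e-11). *Fabp1*, the fatty acid binding protein of hepatocytes, had 132 and 158 tags (1.17, 0.925 to 1.49), with RNA higher at 0.74 ± 0.10 (adjusted p = 7.6e-05).

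For lipogenesis and cholesterol synthesis, 16 of 40 genes had at least 50 tags, with a median of 0.05, and 28 of 40 were called higher and 4 lower in RNA, where 23.4% and 21.4% of all tested genes were. *Fads1*, a fatty acid desaturase, had 289 and 299 tags (1.01, 0.860 to 1.20) while its RNA was 9872 to 10301 normalized counts in WT and 20181 to 23359 in LKO livers (1.08 ± 0.06, edgeR adjusted p = 7.6e-09). *Dgat2*, which completes triglyceride synthesis, had 148 and 217 tags (1.44, 1.16 to 1.78), and *Fdft1*, of the sterol pathway, 217 and 171 (0.772, 0.628 to 0.948). *Scd1* was the 1 gene of this list that was 2-fold lower.

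For plasma protein genes, the median over the gene body sums of 21 genes was 0.05, with 11 above 0 and none changed 2-fold, and 28 of 47 were called higher and 10 lower in RNA (all tested genes, 23.4% and 21.4%). *Alb* had 390 and 384 tags at its gene end (0.965, 0.836 to 1.11), *Trf* (transferrin) 242 and 244 (0.988, 0.824 to 1.19) and *Ttr* (transthyretin) 140 and 142 (0.994, 0.782 to 1.26). Their RNA was higher in LKO by a log2 fold change of 0.63 ± 0.06, 0.87 ± 0.06 and 0.86 ± 0.10 (edgeR adjusted p = 4.1e-06, 9.6e-08 and 1.3e-05), with all 4 LKO libraries above all 4 WT libraries for each. The peaks of *Alb* and *Trf* were above 0.5 tags per base and strand in both libraries.

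Genes of amino acid and glucose metabolism had a median of 0.16 over 14 genes, with 10 above 0, and 26 of 37 were called higher in RNA and 5 lower, beside 23.4% and 21.4% of all tested genes. *Pck1* had 361 and 352 tags and slightly lower RNA (−0.20 ± 0.06, edgeR adjusted p = 0.015). The 2-fold lower gene of this list was *Ddc*, given above.

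Of the sex-biased and xenobiotic genes, 8 had at least 50 tags, with a median of 0.38 and 5 above 0, and 23 of 42 were called higher and 14 lower in RNA, against 23.4% and 21.4% of all tested genes. *Cux2*, a female-biased transcription factor gene, had 184 and 232 tags over 7 peaks (1.24, 1.01 to 1.51), and 1.89 to 10.1 against 182 to 306 normalized RNA counts (5.49 ± 0.27, edgeR adjusted p = 3.5e-09). *Cyp17a1*, a steroid hydroxylase, had 103 and 163 tags in intron 6 (1.55, 1.20 to 2.00) and higher RNA (2.04 ± 0.09, adjusted p = 6.3e-10). *Bcl6*, a male-biased repressor gene, had 91 and 152 tags (1.64, 1.25 to 2.15) while its RNA fell, with 1321 to 1432 normalized counts in WT and 328 to 421 in LKO livers (−1.85 ± 0.08, adjusted p = 1.1e-09).

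Hepatocyte transcription factors had a median log2 ratio of 0.32 over 16 genes, with 12 above 0 and 1 at least 2-fold higher, *Onecut1*, while 6 of 23 were called higher and 10 lower in RNA. Over all tested genes 23.4% were higher, close to this list's share, and 21.4% lower. *Hnf4a*, a master regulator of hepatocytes, had 120 and 172 tags (1.40, 1.11 to 1.79) with lower RNA (−0.41 ± 0.06, edgeR adjusted p = 0.00028). *Zbtb20*, which represses *Afp* in the liver, had 207 and 297 tags over 15 peaks (1.41, 1.17 to 1.69) with lower RNA (−0.81 ± 0.11, adjusted p = 0.00011). *Nr1i2*, the pregnane X receptor, had 139 and 197 (1.39, 1.11 to 1.74) with higher RNA (0.26 ± 0.06, adjusted p = 0.0038), a call lost with the length trend removed.

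The circadian genes had a median of 0.11 over 13 genes, with 5 of 20 called higher and 6 lower in RNA, near the 23.4% and 21.4% of all tested genes. *Hlf*, a clock output factor, had 156 and 202 tags (1.27, 1.02 to 1.57) with lower RNA (−0.87 ± 0.07, edgeR adjusted p = 9.0e-07), and *Nfil3*, which acts against it at the same sites, 183 and 129 (0.691, 0.547 to 0.870) with an uncalled RNA change. Immediate early and stress genes had a median of −0.13 over 8 genes, with 3 above 0. *Socs3*, an inhibitor of cytokine signalling, had 160 and 104 tags in its 3′ UTR (0.637, 0.493 to 0.821) and uncalled RNA (adjusted p = 0.59), and *Jund* 352 and 370. Of these lists none had more than 1 gene past 2-fold in the Pol II sums.

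*Ncor1*, which encodes a corepressor that GPS2 binds, had 31 and 30 tags, a ratio of 0.949 (0.555 to 1.62). The markers of non-parenchymal cells had few tags. The Kupffer cell genes *Clec4f* and *Csf1r* had 35 and 22, and 57 and 45 tags, although their RNA was higher in LKO (0.56 ± 0.07 and 0.42 ± 0.07, edgeR adjusted p = 3.8e-05 and 0.00030). The stellate cell list had a single peak with 8 and 5 tags.

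The gene body was also set against the promoter of the same gene. In the 1759 genes with at least 50 tags in each, the median ratio of gene body to promoter tags was 0.467 in WT (central 50% 0.273 to 0.872) and 0.481 in LKO (0.281 to 0.864). The median log2 change of the ratio was 0.04, with 963 genes above 0, 28 at least 2-fold higher and 23 lower. In 27 genes with RNA up it was −0.04 and in 16 with RNA down −0.0046. The ceiling of tags per position touched promoter peaks more often. Above 0.5 tags per base and strand were 790 promoter peaks in WT and 1145 in LKO, against 28 and 39 gene body peaks. The part of this ceiling in the ratios and their change was not tested. Promoter Pol II of genes with RNA up had a median log2 ratio of 0.13, with 21 of 27 above 0, and over all 1713 genes the median was 0.06, with 62.9% above 0.

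The last question was whether H3K27ac changed where gene body Pol II lies. Of 5662 tested H3K27ac peaks that overlapped a gene body peak, 104 (1.84%) were called higher and 16 (0.283%) lower in LKO, against 1.21% and 0.212% of all 47108 tested (edgeR's quasi-likelihood test, adjusted p below 0.05), and 986 had an unadjusted p below 0.05. DESeq2 called 117 and 26. These counts depend on each library. Without WT library 1 none was called (0 higher and 0 lower), without WT library 2 only 1 was higher, without LKO library 1 the calls were 289 and 204, and without LKO library 2 they were 213 and 38. The 98 gene body peaks with at least 20 tags in H3K27ac peaks called higher had a median log2 Pol II ratio of 0.06, with 53 above 0, 15 at least 2-fold higher and 5 lower. The 5818 in peaks not called had 0.09, with 342 higher and 254 lower. Across 5936 gene body peaks, Pearson's r between the 2 changes was −0.05 and Spearman's rho −0.10.

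The H3K27ac peak over 2 *Cux2* peaks had 27.6 and 28.9 tags per 10000000 in WT and 91.4 and 142 in LKO (edgeR adjusted p = 0.012), and the Pol II peaks in it 67 and 102, and 44 and 68 tags. At *Acot3* the mark had 313 and 406 in the WT libraries, below the 758 and 1133 of the LKO libraries (edgeR adjusted p = 0.022), with 92 and 117 Pol II tags at the 5′ UTR. At *Cyp17a1* it was 504 and 489 against 765 and 816 (adjusted p = 0.014), and at the *Rgs16* gene end 190 and 274 against 448 and 592 (adjusted p = 0.031). At the *Cyp2a5* gene end it was 96.3 and 126 in WT against 186 and 193 in LKO (edgeR adjusted p = 0.047), with 70 and 70 Pol II tags. These sites, like that of *Cyp2a4*, are named because the mark was called higher, so LKO libraries above WT libraries are no separate result. At the *Cyp4a14* intron peak, with 1 and 16 Pol II tags, the mark was not called (71.5 and 126 against 202 and 343, adjusted p = 0.061). With 2 libraries per genotype, these calls share the dependence on single libraries given above.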

How the data were processed

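Pol II values are raw tag counts per peak that the authors deposited, made by them with HOMER from uniquely mapped reads on mm9, with library totals per the file headers. RNA values are counts per gene deposited by the authors without normalization. H3K27ac values are raw tag counts as deposited. The peak lists hold another value, a constant 1, as deposited, and only positions were used. Aligner versions and the settings of peak calling were not found in the labels or methods, and the sources do not settle which program counted the RNA. The authors' own fold changes and p-values in the tables were not used.

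Peaks were kept by the distance and annotation columns. Each was given to the gene of the transcript in its annotation (7404 paired by the file, 1509 by the RefSeq table, 4 by nearest TSS). Tags were scaled to library totals per 10000000, with 0.5 in place of 0 tags. Ratios carry exact conditional 95% intervals and counts exact Poisson intervals, both for counting error alone. PCR copies are not independent molecules. A peak needed 20 tags and a gene 50 in both libraries together. RNA and H3K27ac were fitted with edgeR 4.0.16 (R 4.3.3), the quasi-likelihood test and Benjamini-Hochberg adjustment over the whole table, RNA with TMM and the edgeR filter, H3K27ac on peaks called in at least 2 libraries and scaled to total tags. DESeq2 1.42.0 was an alternative. The RNA classes up and down combine the threshold of 0.05 with a 2-fold change. Normalized counts are scaled to the mean library. Overlaps need 1 base, and for marks and factors with replicates a peak in at least 2 libraries (whether the PPARα libraries are separate samples was not tested). Sequences are from NCBIM37 with GENCODE vM1. The code was tested on simulated data.

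Named were *Gps2*, the 10 genes with most tags, the 10 largest rises and falls among genes with at least 100 tags, up to 8 genes with at least 50 tags from each of 15 lists, *Pdk4*, *Cyp4a14*, *Cyp4a10* and *Fgf21*, and single peaks by the same rule. Some genes that the rule names are not reported here. The peaks, lists and tests were chosen with earlier results of these data known. Nothing in the labels says that libraries of a group came from separate litters, so p-values measure the spread between these samples.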

Additional observations from a re-analysis of the deposited data

Results flagged for a closer look

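Dixon's ratio, the gap of the highest or lowest of 4 libraries to its neighbour over the range of the group, was computed for the RNA of 103 named genes in each genotype, and 18 of 206 groups were above the limit, where chance gives about 1 in 20. LKO library 2 was the one apart in 7 of them, more than any other library. It was low for *Acaa1b* (ratio 0.923, 9743 against 12819 to 13076 normalized counts) and *Dbp* (0.884, 1910 against 2530 to 2612), and high for *Ppara* (0.850, 5547 against 3453 to 3766), *Hlf* (0.965, 1251 against 1022 to 1030), *Arid2* (0.886, 572 against 429 to 445), *Zbtb20* (0.884, 92.2 against 75.9 to 77.8) and *Dhcr7* (0.854, 2285 against 2085 to 2114).

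LKO library 3 stood apart for *Fmo1* (0.836, low), *Pck1* (0.865, high) and *Plg* (0.898, high), and LKO library 4 for *Maml3* (0.874, low) and *Ttc23* (0.840, low). In WT, library 1 was low for *Elovl6* (0.942) and *Nr1h4* (0.946), library 3 high for *5830473C10Rik* (0.835), and library 4 low for *Elmod3* (0.881) and high for *Fabp1* (0.895) and *Ttc23* (0.839). LKO library 2 also had the most counted reads, 20.1 in units of 1000000 against 13.2 to 17.2 in the other LKO libraries, and the part of depth in these values was not tested.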

How the results depend on the processing

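The count of gene body peaks past 2-fold rests on the depth and fold required. From 407 higher and 282 lower it moved to 68 and 33 with at least 50 tags, to 1103 and 905 with at least 1 tag, to 1147 and 771 at 1.5-fold, and to 93 and 59 for peaks in both libraries' lists, the last chosen after seeing the data. Scaling to tags in all peaks shifted every log2 ratio by −0.08 and gave 330 and 357, and setting the median to 0 gave 332 and 339, so more peaks were then lower than higher. The median gene body to promoter ratio of 0.467 in WT and 0.481 in LKO moved to 0.403 and 0.419 beyond 3000 bp and to 0.357 and 0.357 with at least 20 tags, where weaker genes enter. The medians by RNA class stayed within their intervals in all alternatives, although these intervals cover only the spread between genes. That of RNA up was −0.01 to 0.19 and that of RNA down −0.14 to 0.09, so neither has a settled sign.

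H3K27ac calls at gene body peaks were the least stable. From 104 higher and 16 lower they went to 51 and 20 with TMM, to 117 and 26 with DESeq2, and to 321 and 109 with a replicate block, and leaving out each library in turn gave 0 to 289 higher and 0 to 204 lower, with the lone library of a group assumed to vary like the other group's. The deviations of same-numbered libraries from their group means correlated at 0.18 for H3K27ac and at 0.08, 0.13, 0.03 and 0.14 for RNA, so the numbers were not taken to pair the samples. For RNA at genes with gene body peaks, the 780 higher and 1121 lower calls were 787 and 1200 with the replicate block, and lay between 638 and 845 and between 923 and 1482 when a library was dropped, the top of both without LKO library 2. With the exon length trend removed, an alternative added once the data had been seen, they were 596 and 978, and *Cyp2e1* and *Gstt1* changed sign, to −0.035 and −0.081. With each library left out, the log2 fold change of *Onecut1* RNA ran from −0.37, without LKO library 2, to 0.27, and was 0.09 with all.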
